A study of Mus musculus with 20 samples.

Results

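The 7 genes described here encode fatty acid elongases (*Elovl1*, *Elovl2*, *Elovl3*, *Elovl5* and *Elovl6*) and fatty acid desaturases (*Fads1* and *Fads2*). They were taken by gene symbol. Each was represented by 1 probe set that the platform annotation assigned to that gene alone, so that 7 of the 25689 probe sets with a value were used. GeneChip Mouse Gene 1.0 ST arrays were hybridized with whole liver RNA of 20 mice, 1 liver per array. The mice were untreated, 8 weeks old, and came from the mixed strain 129Pas x C57Bl/J. All were kept on alternating light and darkness with food at will. At 0 h, when the light went on, livers were taken from 5 mice of the wild type (WT) and from 5 without functional *Crem* (KO, Crem-/-). At 12 h, when it went off, they were taken from 5 further WT and 5 further KO mice. In the KO, a neomycin resistance gene was inserted across both DNA binding domains of *Crem*, a transcription factor of the cAMP pathway that binds cAMP responsive elements (CRE). A level in what follows is the deposited log2 expression value of a probe set, and a difference is a log2 fold change. Levels of different genes were not set against each other, because probe sets differ in brightness.

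Elongases sit in the endoplasmic reticulum and carry out the first and rate-limiting step of a cycle that lengthens an acyl-CoA by a malonyl-CoA unit. ELOVL6 turns palmitate into stearate, and ELOVL3 and ELOVL1 extend saturated and monounsaturated chains further. ELOVL5 and ELOVL2 act on polyunsaturated chains, between and after the steps of the desaturases FADS2 and FADS1, which lead from dietary linoleic and alpha-linolenic acid to arachidonic acid and the omega-3 fatty acids of membranes. In liver these enzymes serve lipoproteins, membranes and stored fat, and several of their genes are known targets of SREBP-1c, LXR and PPAR alpha.

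*Crem* was examined first as a check of the labels. Its level lay between 8.11 and 8.54 in the WT mice at 0 h and between 7.43 and 8.17 in the KO mice. These groups overlapped, with the library labelled KO mouse 1 (8.17) above the lowest WT mouse and close to the next KO mouse (8.07). The study's sample list gives the number 1 to a pre-pubertal WT mouse, while this liver is labelled as 8 weeks old. Whether both numbers mean the same animal is not given, and the *Crem* level does not settle the genotype of this library. It was kept as KO at 0 h, and values without it are given beside the results. At 12 h it lay between 7.90 and 8.02 in WT and between 7.39 and 7.83 in KO, with no overlap. The KO minus WT difference over both times was -0.42 ± 0.08 (SE) and missed the threshold used throughout, a Benjamini-Hochberg adjusted p under 0.05 from limma over all probe sets (adjusted p = 0.135). Which part of the transcript the probe set reads was not examined. The 4 measured markers of hepatocytes had a mean level between 13.9 and 14.1 in every mouse. The markers of adipocytes, neutrophils, lymphocytes and testis germ cells averaged between 5.35 and 6.65 over the mice, and since probe sets differ in brightness these levels do not measure the makeup of the tissue. In all 20 mice *Xist* lay between 4.73 and 5.81 and the Y-linked *Eif2s3y* between 9.18 and 10.5, as in males. All 10 livers at 12 h carried batch label 5 and the 0 h livers batch labels 1 to 4, each with both genotypes. Time and batch therefore cannot be told apart, and the spread between the 0 h batches is given beside the changes with time. No 0 h liver carried batch label 5, so that spread does not measure a shift of this batch. WT mice 80 and 170 had the highest and the lowest array median over all probe sets (7.24 and 7.07). Values without these 2 mice are given where a call depended on them.

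The genes of the 7 enzymes lie on several chromosomes, with *Fads1* and *Fads2* as direct neighbours on chromosome 19 between *Fads3* and *Fen1*. *Elovl3* is on the same chromosome, between *Nolc1* and *Pitx3*. *Elovl5* is on chromosome 9, *Elovl6* on chromosome 3, *Elovl1* on chromosome 4 and *Elovl2* on chromosome 13. RefSeq start-site windows (250 bases before to 50 after the transcription start, build GRCm38.p6) were held for 5 of the 7 genes. *Elovl3* and *Fads1* had no entry. The windows were searched on both strands for 6 motifs: the full CRE TGACGTCA, its shorter core TGACG that lies within it, a sterol regulatory element TCACNCCAC, the E-box CACGTG, the nuclear receptor hexamer AGGTCA and the CCAAT box. The windows of the 3 genes that changed with time and had an entry are shown, because they allow the motif of the missing factor to be looked for beside the measured levels. Matches are in capitals, those on the other strand as their reverse complement (ATTGG for the CCAAT box and TGACCT for the nuclear receptor hexamer).
Elovl5 (chr9:77917115-77917414, plus strand): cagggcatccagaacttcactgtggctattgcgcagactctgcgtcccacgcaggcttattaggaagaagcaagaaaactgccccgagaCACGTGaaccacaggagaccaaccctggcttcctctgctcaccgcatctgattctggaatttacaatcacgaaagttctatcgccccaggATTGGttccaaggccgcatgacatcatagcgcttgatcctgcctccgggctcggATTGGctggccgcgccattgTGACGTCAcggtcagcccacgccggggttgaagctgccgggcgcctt
Elovl6 (chr3:129532136-129532435, plus strand): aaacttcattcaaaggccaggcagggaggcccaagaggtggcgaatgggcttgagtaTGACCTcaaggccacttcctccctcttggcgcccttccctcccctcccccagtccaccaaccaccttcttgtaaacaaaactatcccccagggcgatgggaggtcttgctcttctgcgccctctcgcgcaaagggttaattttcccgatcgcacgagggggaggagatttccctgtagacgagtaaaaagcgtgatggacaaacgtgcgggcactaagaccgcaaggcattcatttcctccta
Fads2 (chr19:10101454-10101753, minus strand): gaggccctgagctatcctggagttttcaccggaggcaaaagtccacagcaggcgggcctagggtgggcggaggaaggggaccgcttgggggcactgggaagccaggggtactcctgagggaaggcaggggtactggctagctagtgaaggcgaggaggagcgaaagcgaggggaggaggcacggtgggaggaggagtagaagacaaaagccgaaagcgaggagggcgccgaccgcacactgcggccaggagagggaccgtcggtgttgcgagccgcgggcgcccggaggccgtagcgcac

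The *Elovl5* window held a full CRE that began at base 4 after the start. Such a match was present in 1.79% of the 32851 mouse windows, and the shorter core in 20.8%. The same window had an E-box (in 7.15% of windows) 161 bases before the start and 2 CCAAT boxes (in 37.4%). The *Elovl6* window held a single AGGTCA hexamer (in 16.3%), and the *Fads2* window held no match. No window of the 5 genes matched the sterol regulatory element as written, which was found in 1.24% of windows. Of the other genes, *Elovl1* had a CCAAT box in one window and an AGGTCA hexamer in the other, and neither window of *Elovl2* had a match. These matches are letters in a window and were not tested as binding sites.

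Most of these genes differed between 12 h and 0 h, which were also different batches, and not all in the same direction. *Elovl3* and *Elovl5* were lower at 12 h in both genotypes. *Fads1* and *Fads2* were higher at 12 h in both genotypes, and *Elovl6* was higher in WT. In WT, 5 of the 7 genes passed the test, against 27.8% of all probe sets, and the median size of the difference was 0.38 over the 7 genes against 0.16 over all probe sets. The 3 higher ones stood against 13.5% of all probe sets and the 2 lower ones against 14.3%. In KO, 4 of the 7 genes passed, against 20.3% of all probe sets, 2 of them higher (10.6% of all) and 2 lower (9.69% of all). The median size in KO was 0.49 over the 7 genes and 0.14 over all probe sets. All 7 probe sets were bright, in percentile 94.6 or higher of the mean level over all probe sets. Among probe sets brighter than the median, tested alone, 5936 of 12844 passed in WT and 5038 of 12844 in KO. Bright probe sets thus passed more often than all probe sets, and the 7 genes were not set against genes of like brightness. In each genotype the 5 mice at 12 h did not overlap the 5 at 0 h for 4 of the 7 genes, namely *Elovl3*, *Elovl5*, *Fads1* and *Fads2*. Such separation was seen for 17.5% of probe sets in WT and 16.4% in KO. An exact permutation test of 5 against 5 mice (two-sided) gives its smallest value, p = 0.00794, wherever the groups do not overlap, and so adds nothing to this separation. Without the library labelled KO mouse 1, the same 4 genes passed in KO, with differences of -2.85 (*Elovl3*), -0.51 (*Elovl5*), 0.60 (*Fads1*) and 0.45 (*Fads2*). The other KO differences with time were then 0.55 for *Elovl6*, 0.11 for *Elovl2* and -0.15 for *Elovl1*.

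**Figure D1:**
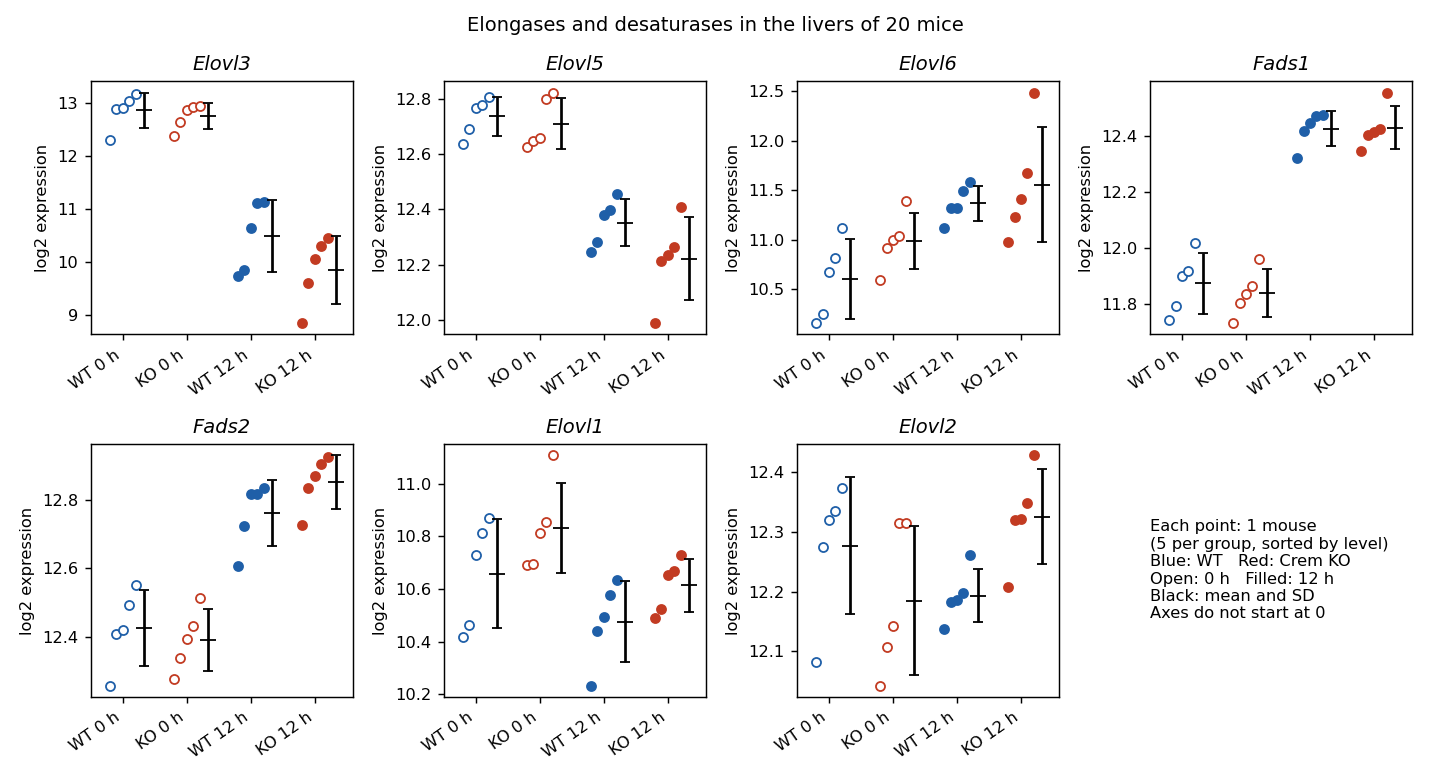
Log2 expression of the 7 genes in each of the 20 livers, with 5 mice per group (blue WT, red KO; open 0 h, filled 12 h), and the mean with SD in black beside each group; the vertical axes differ between panels and do not start at 0. The 12 h and 0 h points of *Elovl3*, *Elovl5*, *Fads1* and *Fads2* do not overlap in either genotype, while those of *Elovl6*, *Elovl1* and *Elovl2* do.

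*Elovl3*, an elongase of saturated and monounsaturated very long chains, had by far the largest change of the 7 genes. The WT livers at 0 h had levels of 12.30, 12.88, 12.91, 13.03 and 13.17, and those at 12 h had 9.74, 9.85, 10.65, 11.12 and 11.13. The KO livers at 0 h had 12.37, 12.64, 12.86, 12.91 and 12.94, and those at 12 h had 8.86, 9.61, 10.06, 10.30 and 10.45. Every 12 h liver was thus below every 0 h liver. The mice at 12 h were also more spread out, with an SD of 0.67 in WT and 0.64 in KO against 0.33 and 0.24 at 0 h. *Elovl3* fell by 2.36 ± 0.28 (SE, n = 5 and 5) in WT, which is 5.14-fold, with an adjusted p of 2.56e-06 in limma. In KO it fell by 2.89 ± 0.28, or 7.42-fold (limma adjusted p = 2.01e-07). By the size of the difference it stood in place 15 of all 25689 probe sets in WT and in place 3 in KO. The means of the 0 h batches differed by up to 0.42 over both genotypes, by up to 0.87 within WT and by up to 0.57 within KO. From the highest group to the lowest the mean levels were 12.86 (WT 0 h), 12.75 (KO 0 h), 10.50 (WT 12 h) and 9.86 (KO 12 h). The genotypes at 0 h were closer than the SD of either, and at 12 h they were apart by 0.64, about the SD of each group.

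*Elovl5*, the main elongase of polyunsaturated fatty acids of intermediate length, moved in the same direction with a far smaller step. At 0 h its levels were 12.64, 12.69, 12.77, 12.78 and 12.81 in WT and 12.63, 12.65, 12.66, 12.80 and 12.82 in KO. At 12 h they were 12.25, 12.28, 12.38, 12.40 and 12.45 in WT and 11.99, 12.21, 12.23, 12.26 and 12.41 in KO. The groups at the different times did not overlap, and those of the different genotypes did at each time. *Elovl5* fell by 0.38 ± 0.07 (SE) in WT, or 1.31-fold (limma adjusted p = 0.000594), and by 0.49 ± 0.07 in KO, or 1.40-fold (limma adjusted p = 4.83e-05). The 0 h batch means lay within 0.15 of each other over both genotypes, within 0.12 in WT and within 0.18 in KO. The order of the group means was WT 0 h (12.74), KO 0 h (12.71), WT 12 h (12.35) and KO 12 h (12.22), in which only the step between KO 0 h and WT 12 h exceeded the larger SD of the pair.

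The desaturases *Fads1* and *Fads2* rose together. FADS2 acts first on the essential fatty acids and FADS1 forms arachidonic acid. *Fads1* had levels of 11.74, 11.79, 11.90, 11.92 and 12.02 in WT at 0 h and 12.32, 12.42, 12.45, 12.47 and 12.47 at 12 h. In KO it had 11.73, 11.80, 11.83, 11.86 and 11.96 at 0 h and 12.35, 12.40, 12.41, 12.42 and 12.55 at 12 h. The lowest liver at 12 h was above the highest at 0 h by more than the range of any of the 4 groups. *Fads1* rose by 0.55 ± 0.07 (SE) in WT, or 1.47-fold (limma adjusted p = 3.04e-06), and by 0.59 ± 0.07 in KO, or 1.50-fold (limma adjusted p = 1.38e-06). Its 0 h batch means lay within 0.064 of each other over both genotypes, within 0.22 in WT and within 0.15 in KO. The group means were 12.43 (KO 12 h), 12.43 (WT 12 h), 11.87 (WT 0 h) and 11.84 (KO 0 h), so that only the times differed beyond the spread.

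*Fads2* had levels of 12.26, 12.41, 12.42, 12.49 and 12.55 in WT at 0 h and 12.61, 12.72, 12.82, 12.82 and 12.83 at 12 h. In KO the levels were 12.28, 12.34, 12.39, 12.43 and 12.51 at 0 h and 12.73, 12.83, 12.87, 12.90 and 12.92 at 12 h. The separation was narrower in WT than in KO, but neither pair of groups overlapped. *Fads2* rose by 0.33 ± 0.07 (SE) in WT, or 1.26-fold (limma adjusted p = 0.00127), and by 0.46 ± 0.07 in KO, or 1.38-fold (limma adjusted p = 5.09e-05). The 0 h batch means lay within 0.081 of each other over both genotypes, within 0.18 in WT and within 0.20 in KO. The group means were 12.85 (KO 12 h), 12.76 (WT 12 h), 12.43 (WT 0 h) and 12.39 (KO 0 h), with the genotypes at each time within about 1 SD of each other.

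*Elovl6*, which elongates the palmitate made by fatty acid synthase, was higher at 12 h, but less evenly. In WT its levels were 10.16, 10.25, 10.68, 10.81 and 11.12 at 0 h and 11.11, 11.32, 11.32, 11.49 and 11.58 at 12 h. In KO they were 10.60, 10.92, 11.00, 11.04 and 11.39 at 0 h and 10.98, 11.22, 11.41, 11.67 and 12.49 at 12 h. In WT the groups overlapped by 1 mouse, and in KO by several, with KO mouse 166 at 12 h alone above all other livers. *Elovl6* rose by 0.76 ± 0.22 (SE) in WT, or 1.70-fold (limma adjusted p = 0.0119, exact permutation p = 0.0159). Without WT mice 80 and 170 the WT difference was 0.60 and no longer passed (limma adjusted p = 0.0879). In KO the difference was 0.57 ± 0.22, with a 95% interval from 0.11 to 1.02, and did not pass (limma adjusted p = 0.0710, exact permutation p = 0.0714). This KO difference was 0.33 without KO mouse 166 at 12 h, and it passed without KO mouse 110 at 12 h (0.71, limma adjusted p = 0.0259) or without KO mouse 143 at 0 h (0.67, limma adjusted p = 0.0468). The test of the difference between the genotypes in this change gave -0.20, with a 95% interval from -0.84 to 0.44 (limma adjusted p = 0.935), so the WT and KO changes were not shown to differ. The WT means of the 0 h batches were apart by up to 0.87 and those of KO by up to 0.62, each more than the change with time in that genotype. The group means were 11.55 (KO 12 h), 11.37 (WT 12 h), 10.99 (KO 0 h) and 10.60 (WT 0 h), and no step between neighbours in this order exceeded the larger SD of the pair, except that from WT 12 h to KO 0 h.

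*Elovl1* and *Elovl2* did not pass in either genotype. *Elovl1*, whose very long saturated products go into sphingolipids, ranged from 10.42 to 10.87 (median 10.73) in WT at 0 h and from 10.23 to 10.63 (median 10.49) at 12 h. In KO it ranged from 10.69 to 11.11 (median 10.81) at 0 h and from 10.49 to 10.73 (median 10.65) at 12 h. The difference was -0.18 in WT (95% interval -0.39 to 0.03, limma adjusted p = 0.183) and -0.22 in KO (-0.43 to -0.01, limma adjusted p = 0.136). *Elovl2*, which extends long polyunsaturated chains toward docosahexaenoic acid, had medians of 12.32 and 12.14 at 0 h in WT and KO and of 12.19 and 12.32 at 12 h. All 20 livers lay between 12.04 and 12.43, the narrowest range of the 7 genes. The *Elovl2* difference with time was -0.08 in WT (95% interval -0.23 to 0.06) and 0.14 in KO (-0.01 to 0.29). It passed in KO when the arrays were quantile normalized (0.21, limma adjusted p = 0.0361) or each centred on its median (0.20, limma adjusted p = 0.0489).

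**Figure D2:**
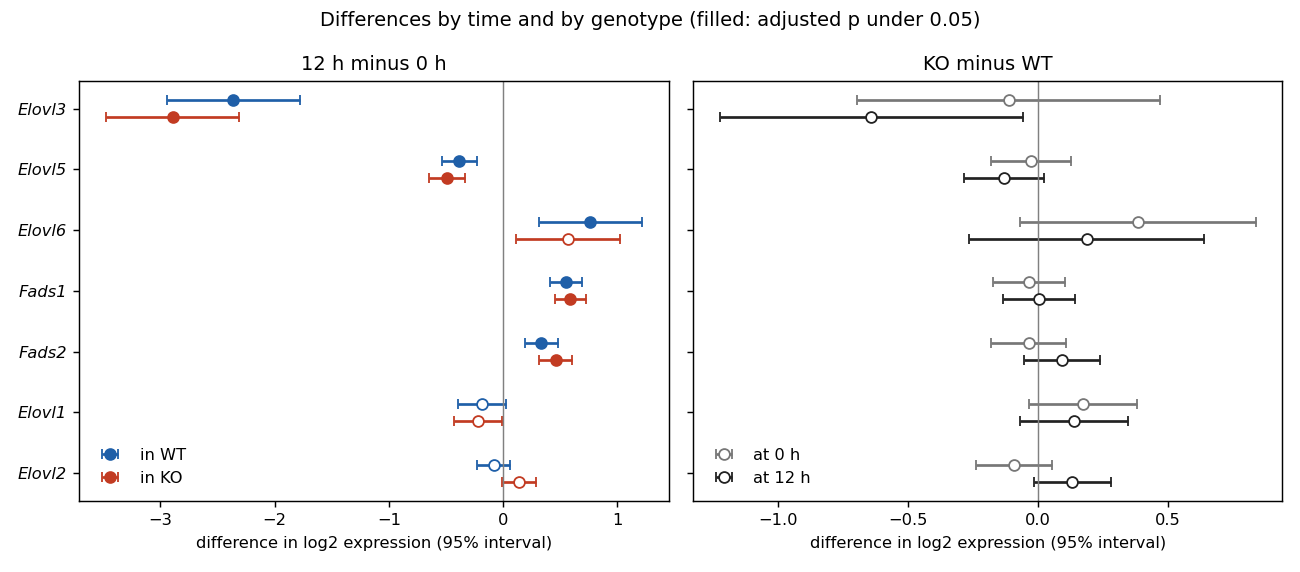
Differences in log2 expression with 95% intervals from the fit over all probe sets, on the left 12 h minus 0 h in WT (blue) and KO (red) and on the right KO minus WT at 0 h (grey) and at 12 h (black); filled points passed at an adjusted p under 0.05. The left panel has 5 filled points in WT and 4 in KO, and the right panel has none.

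Genotype was compared at each time, and none of the 7 genes was differentially expressed between KO and WT. The counts were 0 of 7 at 0 h, where 0% of all probe sets passed, and 0 of 7 at 12 h, where 0.0234% passed. Over both times 0 of 7 passed, against 0.0117% of all probe sets, and 0 of 7 passed for the difference between the times, against 0%. At an unadjusted p under 0.05 in limma, 0 of the 7 genes were below at 0 h, 1 at 12 h, 1 over both times and 1 for the difference between the times, and over all probe sets these counts were 1148, 3216, 2537 and 1757. In no gene were the KO and WT mice apart without overlap at either time, which was the case for 0.728% of probe sets at 0 h and 2.42% at 12 h. The comparisons of genotype and of time share their samples, so that a mouse low at 12 h enters both. Without the library labelled KO mouse 1, 0 of the 7 genes passed in each of these 4 comparisons, and the differences at 0 h were -0.15 for *Elovl3*, 0.40 for *Elovl6*, -0.0042 for *Elovl5*, -0.04 for *Fads1*, -0.02 for *Fads2* and -0.06 for *Elovl2*.

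The widest genotype differences belonged to the most variable genes. *Elovl3* was 0.64 lower in KO than in WT at 12 h (95% interval -1.22 to -0.06), which did not pass (limma adjusted p = 0.347, exact permutation p = 0.167). This difference ranged from -0.83 to -0.39 when single mice were left out, the smaller size being that without KO mouse 166. At 0 h the *Elovl3* difference was -0.11 (-0.69 to 0.47), and within the 0 h batches, with 1 or 2 mice per genotype, it was -0.13, -0.26, -0.59 and 0.64. The change in *Elovl3* with time differed between KO and WT by -0.53 (95% interval -1.35 to 0.29, limma adjusted p = 0.829). *Elovl6* was 0.38 higher in KO at 0 h (95% interval -0.07 to 0.84) and 0.19 higher at 12 h (-0.26 to 0.64). Within the 0 h batches its difference was 0.40, 0.67, 0.18 and -0.12, and at 12 h it was -0.05 without KO mouse 166. The intervals of both genes are wide, and differences as large as -1.22 for *Elovl3* at 12 h and 0.84 for *Elovl6* at 0 h lie within them.

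For the other genes the intervals were narrower. *Fads1* differed between KO and WT by -0.03 at 0 h (95% interval -0.17 to 0.10) and by 0.0029 at 12 h (-0.13 to 0.14). *Fads2* differed by -0.04 (-0.18 to 0.11) and 0.09 (-0.05 to 0.24). Both desaturases were thus measured to within about 0.24 on the log2 scale. *Elovl5*, with the CRE match near its start, differed by -0.03 at 0 h (-0.18 to 0.13) and by -0.13 at 12 h (-0.29 to 0.02, limma adjusted p = 0.484). It was lower in KO in each of the 5 batches, by 0.0080 to 0.13, but the 0 h batches held only 1 or 2 mice per genotype. Without the library labelled KO mouse 1, the 0 h difference of *Elovl5* was -0.0042. Whether the CRE match bears on these differences was not tested. *Elovl1* differed by 0.17 at 0 h (95% interval -0.04 to 0.38) and by 0.14 at 12 h (-0.07 to 0.35), and over both times by 0.16 (0.01 to 0.30, limma adjusted p = 0.485). Without the library labelled KO mouse 1, which had its highest level, the 0 h difference of *Elovl1* was 0.10. *Elovl2* was 0.09 lower in KO at 0 h and 0.13 higher at 12 h (95% interval -0.02 to 0.28, limma adjusted p = 0.460, exact permutation p = 0.0159). Its change with time differed between the genotypes by 0.22 (95% interval 0.02 to 0.43), which did not pass over all probe sets (limma adjusted p = 0.71).

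The genes differed in how much single mice varied within a group. The residual SD over the 4 groups was 0.51 for *Elovl3* and 0.39 for *Elovl6*, in percentiles 99.3 and 98.3 of all probe sets. For *Fads1* it was 0.085, for *Fads2* 0.094, for *Elovl2* 0.096 and for *Elovl5* 0.10, all in percentile 11.9 or lower, with *Elovl1* (0.16) near the median of 0.16. The 2 genes with wide spread thus stood beside 4 with very little. Over the 20 arrays, *Fads1* and *Fads2* had the highest correlation of the 21 pairs (r = 0.95), followed by *Elovl3* and *Elovl5* (r = 0.86), and *Fads1* and *Elovl3* had the lowest (r = -0.92). These values rest largely on the times, since the arrays fall into the times. After the 4 group means were subtracted, *Fads1* and *Fads2* still had the highest correlation (r = 0.74), followed by *Elovl2* and *Fads2* (r = 0.71) and *Elovl2* and *Fads1* (r = 0.51). *Elovl3* and *Elovl5* had r = -0.08 on that scale, and *Elovl3* and *Elovl6* had the lowest value (r = -0.56). The livers are the same in all pairs, so these correlations are a description.

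The genes whose levels were most like those of each enzyme were found over the 20 arrays by Pearson r. *Elovl3* was nearest to *Insig2* (r = 0.97), which holds SREBP precursors in the endoplasmic reticulum, to the clock activator *Arntl* (0.96) and to *Clpx* (0.96). *Fads1* was nearest to *Abcg5* (r = 0.98), one part of a sterol exporter, to *Homer2* (0.97) and to the clock repressor *Nr1d2* (0.97). *Fads2* was nearest to *Tbl1x* (0.93), *Abcg5* (0.93) and *Nr1d2* (0.93), and *Elovl5* to *BC004004*, *Hebp1* and *Atp5e* (0.93 each). *Elovl6* was nearest to *Fasn* (r = 0.94), which encodes fatty acid synthase, then to *Rnf103* (0.88) and *Acaca* (0.87), which makes malonyl-CoA. For *Elovl1* (*Dock6*, *Mgp* and *Ccdc177*) the values were between 0.80 and 0.84, and for *Elovl2* (*Tex21*, *Jhy* and *Wif1*) between 0.66 and 0.69. The high values rest in part on the split into the times. Once the group means were subtracted, *Elovl3* had r = 0.78 with *Insig2*, 0.54 with *Arntl* and 0.46 with *Clpx*. With *Nr1d2* the value was then 0.33 for *Fads1* and 0.41 for *Fads2*. After subtraction of the group means *Fasn* was again nearest to *Elovl6* (r = 0.89), followed by *Idh1* (0.84) and *Gbe1* (0.83). On that scale *Cyp7b1*, an oxysterol hydroxylase, was nearest to *Elovl3* (0.89), then *Agap2* (0.80) and *Ralgapa1* (0.79). Nearest to *Fads1* were *Lrtm2* (0.79), *4933427D14Rik* (0.76) and *Abcg5* (0.75), and to *Fads2* *Il17d* (0.79), *Prr11* (0.75) and *Cd226* (0.75). For *Elovl5* they were *Rab3il1*, *Kcnj11* and *Cox6b2* (0.735 to 0.738). For *Elovl1* they were *Fam167a* (0.80), *Cuta* (0.78) and *Htr1b* (0.77), and for *Elovl2* *Il12a* (0.79), *Bach2* (0.77) and *Fosl1* (0.72). All were picked as the highest among the probe sets of single genes, a search that by itself finds high values. Over the levels, r with the same enzyme was below 0 for *Il17d* (-0.42), *Prr11* (-0.25), *Lrtm2* (-0.22), *Idh1* (-0.15), *Cuta* (-0.11) and *4933427D14Rik* (-0.06). For the others it was 0.18 or higher. KO mouse 166, with the highest *Elovl6* level (12.49) and the lowest *Elovl3* level (8.86) of all livers, also had the highest *Fasn* (13.0), *Acaca* (11.0) and *Srebf1* (11.8) and the lowest *Insig2* (10.4).

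**Figure D3:**
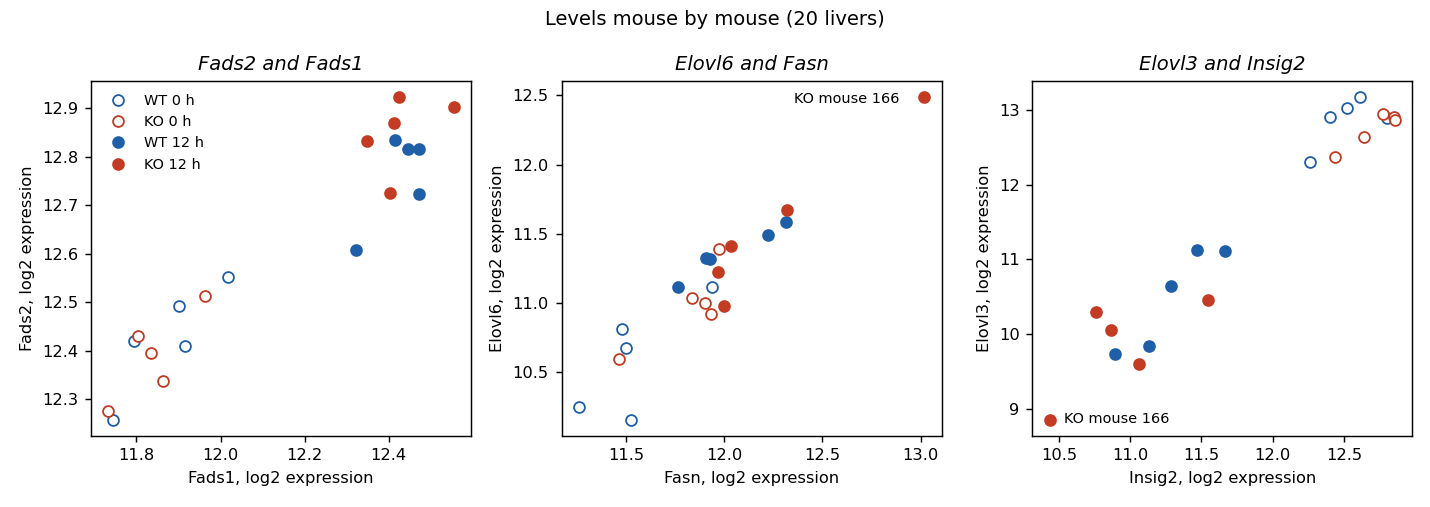
Log2 expression in the 20 livers of *Fads2* against *Fads1* (left), *Elovl6* against *Fasn* (middle) and *Elovl3* against *Insig2* (right); each point is 1 mouse, blue WT, red KO, open 0 h, filled 12 h. The left and right panels split into the times, while the *Elovl6* points run on from 0 h into 12 h and end in KO mouse 166 with the highest level of both genes.

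The genes that work with these enzymes were counted in 8 lists. Over all probe sets 27.8% passed with time in WT and 20.3% in KO. These shares stand beside all counts with time of list genes and cell markers that follow. The counts of electron donors and of peroxisomal genes were near them. Of 8 other elongases and desaturases, only *Fads6* passed, higher at 12 h by 0.26 in WT and 0.38 in KO. *Scd1*, the main stearoyl-CoA desaturase of liver, differed by 0.04 and 0.07 and did not pass (limma adjusted p = 0.788 and 0.636). Of 6 measured partners in the elongation cycle, 3 were higher in WT, the dehydratase genes *Hacd1* (0.38) and *Hacd3* (0.27) and the last enzyme *Tecr* (0.19). In KO 1 of the 6 was higher (*Hacd3*, 0.34) and 2 were lower, the ketoacyl-CoA reductase gene *Hsd17b12* (-0.19) and *Hacd2* (-0.25). Of 5 electron donors to the desaturases, *Cyb5a* was higher in WT (0.18) and *Cyb5r1* in KO (0.25). The partners that passed in KO thus did not share a direction. The list for malonyl-CoA and palmitate had 6 measured genes, among them the decarboxylase gene *Mlycd*, whose enzyme removes malonyl-CoA and does not supply it. In WT 4 of the 6 were higher, *Thrsp* (0.90), *Acaca* (0.54), *Fasn* (0.49) and *Mlycd* (0.32), and none was lower. In KO 2 passed, *Thrsp* (0.54) and *Mlycd* (0.35), and *Fasn* (0.45, limma adjusted p = 0.0657) and *Acaca* (0.41, limma adjusted p = 0.0953) did not. The median difference of this list was 0.40 in WT and 0.38 in KO, whereas over all probe sets it was -0.03 and -0.02. The medians of the other elongases and desaturases were 0.06 and 0.10, those of the partners 0.05 and -0.03 and those of the electron donors 0.03 and -0.02.

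Genes that activate or use long-chain acyl groups moved both ways. Of 4 measured acyl-CoA synthetases, *Acsl4* (0.41) and *Slc27a2* (0.28) were higher and *Acsl5* (-0.26) lower in WT, and in KO *Slc27a2* (0.23) was higher and *Acsl5* (-0.38) and *Slc27a5* (-0.22) lower. Of 8 measured genes of peroxisomal chain shortening, which completes docosahexaenoic acid, *Abcd2* (1.09) and *Abcd3* (0.41) were higher and *Scp2* (-0.28) lower in WT. In KO *Pex5* (0.38) and *Abcd3* (0.25) were higher. The WT mice overlapped in *Abcd2*, with levels from 6.50 to 8.41 at 0 h and from 7.55 to 9.78 at 12 h. The KO means of *Abcd2* were 7.18 at 0 h and 8.07 at 12 h, and it did not pass there. Of 10 genes that place acyl groups into glycerolipids and sphingolipids, 5 were higher and 0 lower in WT, led by *Dgat2* (0.61), the last step of triglyceride synthesis. In KO 3 were higher, among them *Dgat2* (0.60), and *Sptlc2* (-0.26) was lower. The medians of these lists in WT and KO were 0.11 and -0.04 for the synthetases, 0.05 and 0.03 for the peroxisomal genes and 0.18 and 0.05 for the use of acyl groups.

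Known regulators of the 7 genes, and clock factors, had some of the widest differences. Of 15 measured, 7 were higher and 4 lower at 12 h in WT, and 6 were higher and 4 lower in KO, with medians of 0.25 and 0.00. *Srebf1*, which encodes SREBP-1c, rose by 0.65 in WT and 0.84 in KO, and *Ppara* by 0.83 and 0.90. The clock repressors *Nr1d2* (2.59 and 2.87) and *Nr1d1* (1.38 and 1.57) rose, whereas *Arntl* (-2.14 and -2.56) and *Insig2* (-1.23 and -1.78) fell. *Nr1h3*, which encodes LXR alpha, fell slightly (-0.23 and -0.29), and *Mlxipl* (-0.13 and -0.11), which encodes ChREBP, did not pass. *Crem* itself was lower at 12 h in WT (-0.35), with -0.24 in KO. For genotype, 0 genes of these lists passed in any of the 4 comparisons.

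**Figure D4:**
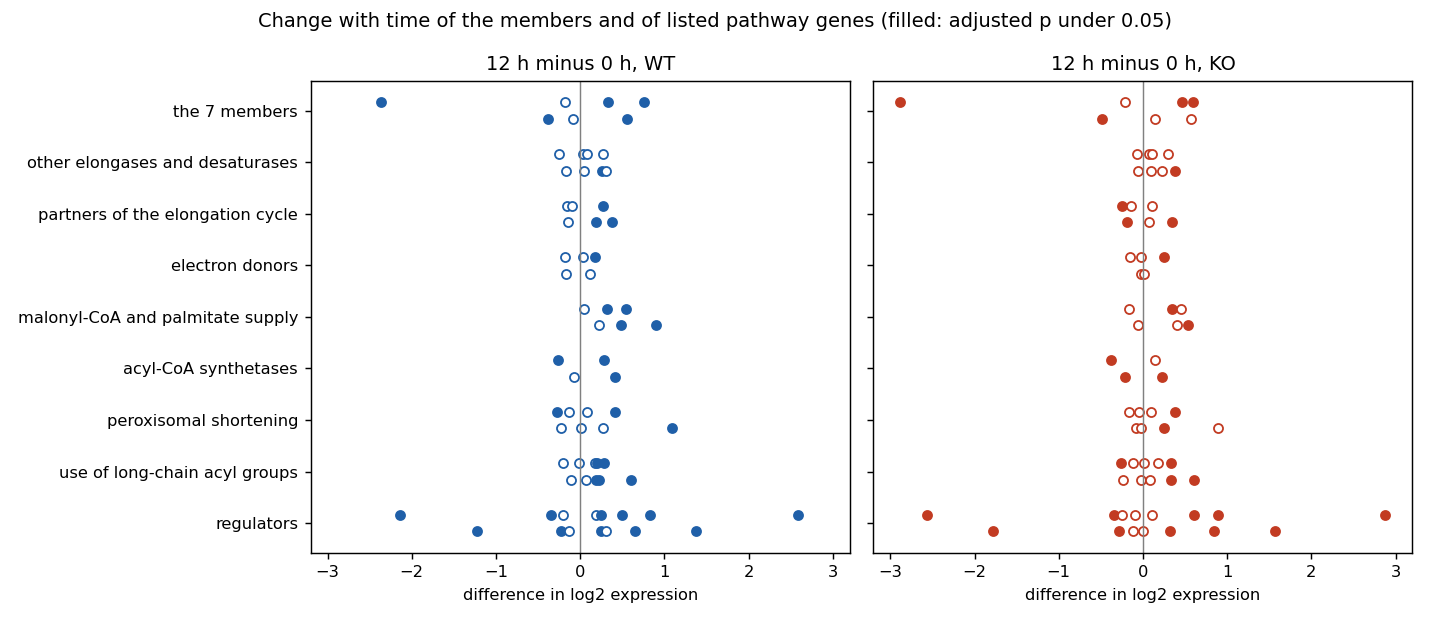
Log2 difference between 12 h and 0 h of the 7 genes and of the genes of 8 lists, in WT (left, blue) and KO (right, red); each point is 1 gene, filled where the adjusted p was under 0.05. *Elovl3* at -2.36 and -2.89 lies among the regulators at the edges of the range, while most partners in elongation lie within 0.5 of 0.

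Among the markers of other liver cells, those of Kupffer cells passed most often with time. Of 5 Kupffer cell markers, 4 were lower at 12 h in WT and 2 in KO, and their mean level was between 9.52 and 9.88 in WT at 0 h and between 8.90 and 9.32 at 12 h (KO 9.31 to 9.84 and 9.07 to 9.47). Of 4 cholangiocyte markers 1 was lower in each genotype, with a mean level between 7.44 and 7.87 in WT at 0 h and between 7.23 and 7.47 at 12 h (KO 7.48 to 7.63 and 7.22 to 7.40). Of 5 stellate cell markers 2 were higher and 1 lower in WT and 1 lower in KO, and of 5 sinusoidal endothelial markers 1 was higher and 1 lower in WT and 1 lower in KO. Of the 4 hepatocyte markers 1 was higher in WT and 0 passed in KO. In RNA of whole liver, fewer cells of a type and less RNA per cell cannot be told apart, and the part of the other cell types in the changes of the 7 genes was not tested. The called directions of the 7 genes held when the arrays were quantile normalized or centred on their medians, although centring turned the split of all calls in WT from 3462 higher and 3682 lower to 5294 and 1995, and in KO from 2722 and 2489 to 3676 and 1603.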

How the data were processed

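The deposited values are log2 expression after RMA by the authors, 1 per probe set and array, and no version of RMA is named. Their methods describe RMA with background from antigenomic probes for testis, and the sources used here do not say whether the livers were normalized by themselves. RMA pulls arrays toward a common distribution, so a shift common to most genes may be reduced or not seen. The array medians over the tested probe sets still differed by time. They lay between 7.18 and 7.24 at 0 h and between 7.07 and 7.17 at 12 h. Of 35557 probe sets, 9868 had no value and were left out, and the other 25689 were tested without a filter. The probe gene table gave a single gene for 20777 of them. A linear model of 4 group means was fitted (lmFit and eBayes of limma 3.58.1, R 4.3.3) over 20 arrays, and p was adjusted over all 25689 (Benjamini-Hochberg). Exact permutation tests were two-sided. The fitting code was first tested on simulated data. The number of arrays, 5 per group, limits the precision. The 7 genes, the gene lists and the settings were chosen with earlier results of these data known. From each list up to 4 passing genes per direction were named, with the regulators and the 3 genes nearest to each enzyme by r. For a gene with several probe sets the one with the highest mean stood for it. The array of KO mouse 1 was kept under its label, although in the study's sample list this number belongs to a WT animal before puberty. Results were also computed without it.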

Additional observations from a re-analysis of the deposited data

How the results depend on the processing

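The counts of the 7 genes called were within 1.5 times the reported ones in every setting run. The widest change was with time in KO after centring, where *Elovl2* (limma adjusted p = 0.0489) and *Elovl6* (0.0452) passed in addition to the 4 genes called. The settings were batch as a block (fixed for genotype, random for time with a correlation of 0.0286), the arrays compared alone (not run for both times and for genotype by time, which use all arrays), bright probe sets alone, quantile normalization, centring of each array, a robust prior with a trend on intensity, array weights, the set without WT mice 80 and 170, and leaving out each mouse in turn. Of 1162 values of single genes under these settings, 1139 kept their direction and their side of the threshold, 1 was no longer called (*Elovl6* in WT without WT mice 80 and 170), 6 were newly called (*Elovl2* and *Elovl6* with time in KO) and 16 changed sign, none of them called. *Elovl6* with time in KO also passed among bright probe sets alone (adjusted p = 0.0471) and after centring (0.0452). Quantile normalization turned *Fads1* over both times to 0.013 and *Elovl1* for genotype by time to 0.0030. Centring turned *Fads1* for genotype at 12 h to -0.040, *Elovl2* over both times to -0.0090, *Fads2* over both times to -0.00098 and *Elovl2* with time in WT to 0.0035. With single mice left out, values that crossed 0 ran from -0.096 to 0.034 (*Elovl1*, genotype by time), from -0.0046 to 0.038 (*Elovl2*, both times), from -0.068 to 0.0010 (*Fads1*, 0 h), from -0.032 to 0.0020 (*Fads1*, both times), from -0.028 to 0.023 (*Fads1*, 12 h) and from -0.046 to 0.33 (*Elovl6*, 12 h). The cause was not tested. Over all probe sets the 6 calls for genotype at 12 h became 23 with centring or with bright probe sets alone, 11 with the intensity trend and 3 with batch as a block. They became 2 with quantile normalization or array weights and 0 with the arrays compared alone. With single mice left out they ran from 1 (without KO mouse 55) to 37 (without WT mouse 167). None of these calls was one of the 7 genes. No paired analysis was possible because no mouse number occurs in more than 1 group. How far single probes stood above background cannot be read from these values.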
